A study of Mus musculus with 4 samples.

Results

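Blood monocytes are recognised by a small set of genes for sensing bacteria, binding antibody, digesting what has been taken up and laying down matrix. Here 9 such genes (Cd14, Fcgr1, Fcgr4, Lyz2, Lyz1, Cd68, Fn1, F13a1 and Emilin2) were followed in plasmacytoid dendritic cells (pDCs) that lack the receptor gene Flt3. They were chosen by name, as genes of blood monocytes, from the 19938 genes that the arrays read through probe sets carrying a single gene symbol, and all 9 were measured, each by its own probe set. The samples were mature pDCs sorted from spleens of Flt3 KO mice (2 arrays, replicates 1 and 2) and of WT mice (2 arrays, replicates 1 and 2), untreated and at steady state, with the biological replicates numbered in the labels. Strain, age, the form of the Flt3 allele, the sort gate and whether a replicate pooled several animals are not stated in the labels, so the p-values measure the spread between these samples. Total RNA was hybridised to whole-transcript arrays after biotin labelling.

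Monocytes and dendritic cells both arise from bone marrow progenitors, and FLT3, the receptor tyrosine kinase for FLT3 ligand, is best known for driving the dendritic branch. Monocytes carry CD14, which hands bacterial lipopolysaccharide (LPS) to TLR4, and Fc receptors that bind IgG, and they fill their lysosomes with lysozyme and the glycoprotein CD68. pDCs are known for interferon output and are usually low in CD14 and lysozyme. CD68 is an exception, since its protein is also known from human pDCs.

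Values are log2 of the deposited intensity, so that a difference of 1 is a 2-fold change, and every difference is Flt3 KO minus WT. Genotypes were compared with limma over all 19938 genes, and a gene passed at a Benjamini-Hochberg adjusted p under 0.05. Flt3 itself read 8.46 and 8.61 in the Flt3 KO arrays, against 10.71 and 10.77 in the WT arrays. The pDC genes Siglech, Bst2 and Tcf4 lay between 12.15 and 12.93 on all 4 arrays, and 6 of 12 measured pDC identity genes were lower in Flt3 KO with none higher. Those with the lowest p were Cox6a2 (−0.76), the RNA sensor gene Tlr7 (−0.49), the chemokine receptor gene Ccr9 (−0.43) and the transcription factor gene Spib (−0.47), and the others were Irf8 and Ly6d. Of all genes 476 passed, 215 higher and 261 lower (217 and 452 with each array centred on its median). With 2 arrays against 2, the smallest two-sided p of an exact permutation test on any 1 gene is 0.3333, so each call leans on the variance pooled across genes.

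Of the 9 genes, 5 rose in Flt3 KO pDCs, namely Emilin2, Cd14, Fn1, Lyz2 and Lyz1, and none fell. Fcgr4, F13a1, Fcgr1 and Cd68 did not pass. Across all genes 1.08% passed as higher and 2.39% in either direction. The median difference of the 9 genes was 0.48, beside −0.001 for all genes. In 8 of the 9 the readings of the genotypes did not overlap, as in 47.2% of all genes. In 7 of these both Flt3 KO arrays lay above both WT arrays, where 21.9% of all genes did so, and in Cd68 both lay below, as in 25.3% of all genes. The genes were picked with results of these arrays already known, so these counts describe them and carry no test of the group. In sorted bulk RNA a larger share of cells with a transcript and more transcript per cell cannot be told apart.

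**Figure D1:**
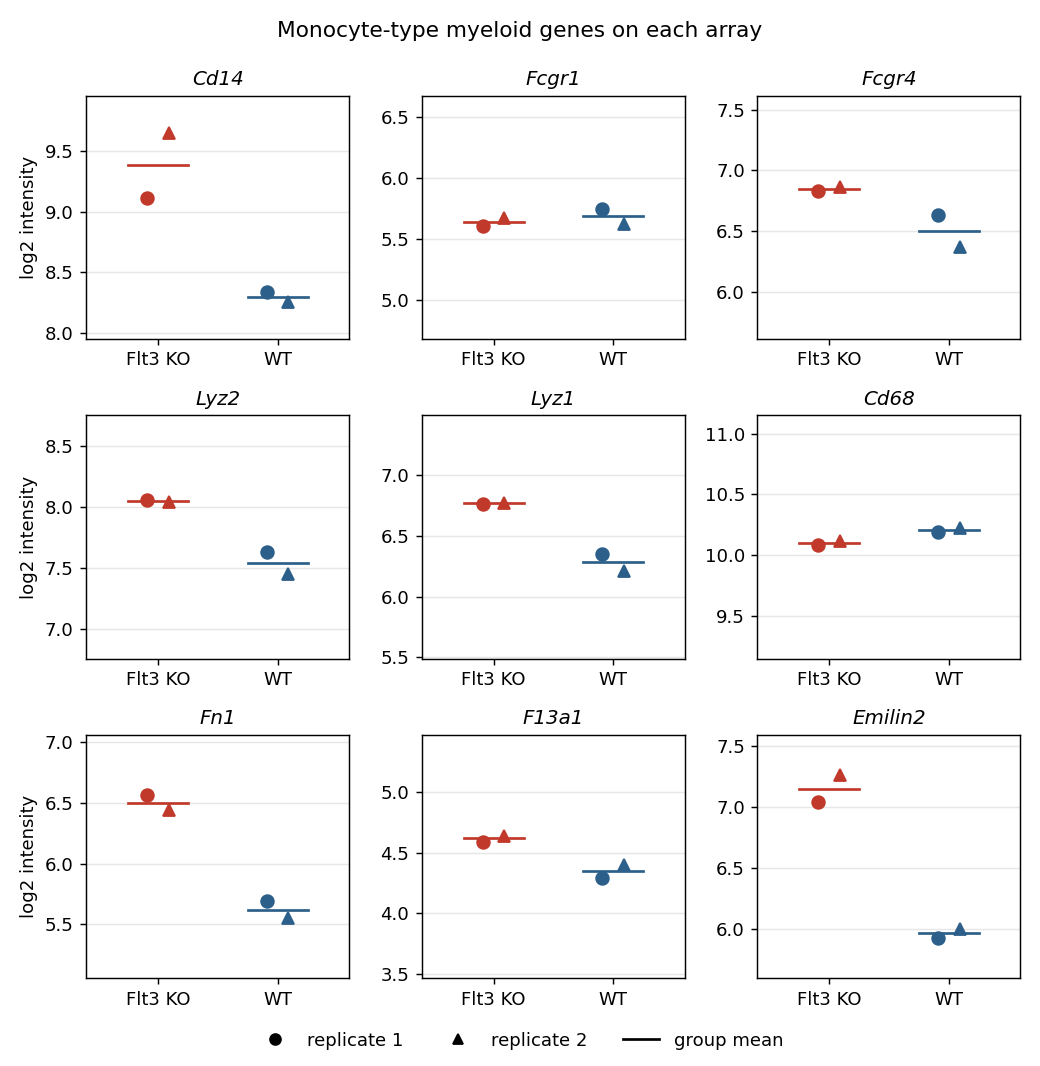
Log2 intensity of the 9 genes on each array, Flt3 KO in red and WT in blue, circles for replicate 1, triangles for replicate 2 and lines for group means; every panel spans 2 log2 units. Flt3 KO and WT arrays are well separated for Cd14, Fn1 and Emilin2, separated by less for Lyz2 and Lyz1, and interleaved for Fcgr1.

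The promoters of the lysozyme pair and of the Fc receptor pair are shown because each pair holds related genes, of which the lysozymes rose together and the Fc receptors gave different values. The windows are the 250 bases before the start site, 5′ to 3′ on the gene's strand, from RefSeq on GRCm38.p6. Capitals mark GAGGAA, a spelling of the core bound by PU.1, the master factor of myeloid cells, or the C/EBP motif (TTGCNNAA), each searched on both strands. The regions are chr10:117282273-117282522 (minus strand) for Lyz2 and chr10:117292869-117293118 (minus strand) for Lyz1, then chr3:96293970-96294219 (minus strand) for Fcgr1 and chr1:171018676-171018925 (plus strand) for Fcgr4.
Lyz2: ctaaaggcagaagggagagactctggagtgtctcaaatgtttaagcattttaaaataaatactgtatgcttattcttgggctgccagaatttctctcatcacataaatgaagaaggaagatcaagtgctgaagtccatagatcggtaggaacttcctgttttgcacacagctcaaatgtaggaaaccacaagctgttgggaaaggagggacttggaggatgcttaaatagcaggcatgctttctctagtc
Lyz1: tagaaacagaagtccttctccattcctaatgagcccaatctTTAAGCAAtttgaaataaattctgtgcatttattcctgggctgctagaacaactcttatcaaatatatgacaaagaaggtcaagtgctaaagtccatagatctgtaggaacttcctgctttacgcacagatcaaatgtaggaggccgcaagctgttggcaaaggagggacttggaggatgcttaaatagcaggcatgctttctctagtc
Fcgr1: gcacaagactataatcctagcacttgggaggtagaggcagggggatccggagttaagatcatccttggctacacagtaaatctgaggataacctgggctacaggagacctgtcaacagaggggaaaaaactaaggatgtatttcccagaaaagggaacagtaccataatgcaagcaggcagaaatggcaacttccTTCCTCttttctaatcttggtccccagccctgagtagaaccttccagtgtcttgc
Fcgr4: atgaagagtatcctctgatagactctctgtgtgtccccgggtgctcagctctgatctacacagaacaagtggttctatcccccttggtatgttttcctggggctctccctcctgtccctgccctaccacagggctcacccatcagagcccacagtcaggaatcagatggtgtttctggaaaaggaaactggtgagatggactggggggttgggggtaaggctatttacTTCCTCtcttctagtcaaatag

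The Lyz2 and Lyz1 windows were identical at 200 of 248 aligned bases (80.6%), and the pair are neighbours in the RefSeq order of protein-coding genes on chromosome 10. RefSeq windows of 7 of the 9 genes were searched, with 2 start sites each for F13a1 and Emilin2. Cd14 and Fn1 were left out of the search, so whether their promoters hold either motif was not tested. The PU.1 core in the spelling GAGGAA was found in Fcgr4 (22 bases before the start), Fcgr1 (55), F13a1 (66, the first of its start sites) and Cd68 (225). It was found in 23.3% of all windows of that length. The C/EBP motif was found in Lyz1 (209 bases before the start) and Cd68 (43), and in 9.56% of all windows. No match of either motif overlapped one of the other. Lyz2, Lyz1 and Emilin2, the 3 searched genes that rose, held no GAGGAA. The Lyz2 and Lyz1 windows do hold AGGAA, the last letters of that string, which was not searched by itself. The 4 genes that held GAGGAA did not pass the threshold. Other spellings of the core were not searched, nor were Cd14 and Fn1, which also rose. With so few genes, and 2 windows that are largely alike, motif and rise were not compared. Whether PU.1 acts on any of these genes was not tested. A match is a string of letters and not a measured binding site.

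Cd14 encodes the LPS co-receptor of the monocyte surface. It read 9.11 and 9.65 in Flt3 KO replicates 1 and 2, against 8.34 and 8.26 in WT replicates 1 and 2. Both Flt3 KO arrays were above both WT arrays, and replicate 2 was the higher of the Flt3 KO arrays by 0.55, the widest gap between replicates among the 9 genes. The mean was 9.38 ± 0.39 in Flt3 KO and 8.30 ± 0.055 in WT (SD, n = 2 each). The difference was 1.08 (SE 0.16, 95% confidence interval 0.72 to 1.45, limma adjusted p = 0.020), or 2.12-fold. Without Flt3 KO replicate 2 it was 0.81 (adjusted p = 0.0903), and without Flt3 KO replicate 1 it was 1.35 (adjusted p = 0.0414).

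None of the other genes of LPS recognition passed as higher beside Cd14. Of 12 measured, Cd180 was lower, beside 1.31% of all genes, and 11 did not pass (median difference 0.10). At a nominal p below 0.05 in limma, 3 were higher and 2 lower, a level that 17.1% of all genes met. Cd180, which encodes a relative of TLR4 that restrains it, read 9.66 and 9.73 in Flt3 KO and 10.004 and 9.965 in WT, a difference of −0.29 (SE 0.054, adjusted p = 0.043). That call was lost with the replicate number as a block (adjusted p = 0.070). Tlr4 itself read 4.12 and 4.13 in Flt3 KO and 4.04 and 3.95 in WT, well below 5.89, the median of all genes, and its partner Ly96 read 3.95 and 4.01 in Flt3 KO and 4.51 and 4.36 in WT. The signalling receptor of the CD14 pathway thus gave a dim reading in both genotypes. Tlr2, whose product also receives ligands from CD14, differed by 0.35 (adjusted p = 0.20) and the adaptor gene Ticam2 by 0.54 (adjusted p = 0.15).

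Fcgr1 encodes CD64, the high-affinity IgG receptor, a classical marker that separates monocytes and macrophages from dendritic cells. Its readings were 5.61 and 5.67 in Flt3 KO and 5.75 and 5.62 in WT. The arrays of the genotypes were interleaved and dim, all below 5.89. The difference was −0.044 (SE 0.094, 95% confidence interval −0.26 to 0.18, adjusted p = 0.87), and its sign turned without WT replicate 1 (0.021). The interval lay below the differences of Lyz2 and Lyz1. As the readings are dim and limited by low signal over background, it does not bound the change in transcript. Fcgr4 encodes an activating IgG receptor of mouse monocytes and neutrophils. It read 6.83 and 6.86 in Flt3 KO, against 6.63 and 6.37 in WT. The Flt3 KO arrays were close together and above both WT arrays, which differed from each other by 0.26. The difference of 0.34 (SE 0.10, 95% confidence interval 0.10 to 0.58) did not pass (adjusted p = 0.15), and it was 0.21 without WT replicate 2.

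In RefSeq order Fcgr4 lies between Fcgr2b, the inhibitory IgG receptor gene, and Fcgr3, a low-affinity activating one. Fcgr2b read 7.63 and 7.82 in Flt3 KO, against 7.32 and 7.40 in WT, a difference of 0.37 (adjusted p = 0.089). Fcgr3 read 7.35 and 7.80 in Flt3 KO, against 7.22 and 7.09 in WT, a difference of 0.42 (adjusted p = 0.20). All 3 neighbours thus had Flt3 KO readings above WT without passing, and their probes may share signal because the genes are related in sequence. The signalling chain gene Fcer1g, on which activating Fc receptors depend, was bright and interleaved, at 11.49 and 11.49 in Flt3 KO and 11.64 and 11.44 in WT. Of 14 further Fc receptor genes measured, none was higher and 1 was lower in limma, beside 1.08% and 1.31% of all genes. At a nominal p below 0.05, 2 were higher and 2 lower. The lower gene was Fcrla, an Fc receptor-like gene of B-lineage cells, with 9.996 and 10.053 in Flt3 KO and 10.62 and 10.51 in WT (difference −0.54, SE 0.058, adjusted p = 0.0085).

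Lyz2 encodes lysozyme M, the cell wall-digesting enzyme of mouse monocytes, macrophages and neutrophils. It read 8.06 and 8.04 in Flt3 KO, against 7.63 and 7.45 in WT. The Flt3 KO arrays were nearly equal and lay above both WT arrays. The mean was 8.05 ± 0.013 in Flt3 KO and 7.54 ± 0.13 in WT (SD, n = 2 each), a difference of 0.51 (SE 0.081, 95% confidence interval 0.32 to 0.70, adjusted p = 0.027) or 1.42-fold. Lyz1, the gene of lysozyme P, best known from Paneth cells of the gut, read 6.76 and 6.77 in Flt3 KO, against 6.35 and 6.21 in WT. As with Lyz2, the Flt3 KO arrays were nearly equal and above both WT arrays, and its difference was 0.48 (SE 0.086, 95% confidence interval 0.28 to 0.68, adjusted p = 0.039) or 1.40-fold. The coding sequences of the pair are near-identical, so the probe sets can share signal and the values may not be independent readings. Lyz1 was no longer past the threshold with the replicate number as a block (adjusted p = 0.056).

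No other antibacterial gene passed beside the lysozymes. None of 13 measured members of a list of lysozyme-like and antibacterial genes passed in limma, also at a nominal p below 0.05, and their median difference was −0.0033. The lowest p was that of Cybb, the catalytic subunit of the phagocyte oxidase, which was bright and differed by −0.072 (SE 0.039, adjusted p = 0.40), with 11.86 and 11.88 in Flt3 KO and 11.96 and 11.93 in WT. Lyg1, Lyg2 and the lysozyme-like genes Lyzl1, Lyzl4, Lyzl6 and Spaca5 were dim.

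Cd68 encodes a heavily glycosylated lysosomal membrane protein of the LAMP family. It read 10.08 and 10.12 in Flt3 KO, against 10.19 and 10.22 in WT. Both Flt3 KO arrays lay below both WT arrays by a small margin. The difference was −0.11 (SE 0.050, 95% confidence interval −0.23 to 0.0083, adjusted p = 0.33), so a rise of the size of any of the 5 genes that passed lay outside the interval. None of 13 LAMP family and scavenger receptor genes passed in limma, with 1 higher and 1 lower at a nominal p below 0.05. The scavenger receptor gene Cd36, which takes up oxidised lipid, had the lowest p, with 5.26 and 5.36 in Flt3 KO and 5.76 and 5.72 in WT (difference −0.43, adjusted p = 0.068).

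Fn1 encodes fibronectin, a matrix glycoprotein that monocytes and macrophages secrete. It read 6.56 and 6.44 in Flt3 KO, against 5.69 and 5.55 in WT. The Flt3 KO arrays were separated from the WT arrays by far more than either pair of replicates, and here Flt3 KO replicate 1 was the higher. The mean was 6.50 ± 0.084 in Flt3 KO and 5.62 ± 0.10 in WT (SD, n = 2 each), a difference of 0.88 (SE 0.096, 95% confidence interval 0.65 to 1.10, adjusted p = 0.0085). The WT readings were below 5.89, too dim for a fold to be read from them. The difference was 0.71 with 16 added to each intensity before log2.

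Emilin2 encodes a secreted glycoprotein of elastic fibre surfaces. It read 7.04 and 7.26 in Flt3 KO, against 5.921 and 5.996 in WT. It had the largest difference of the 9 genes, and the lowest Flt3 KO reading stood more than 1 log2 unit above the highest WT reading. The mean was 7.15 ± 0.15 in Flt3 KO and 5.96 ± 0.053 in WT (SD, n = 2 each), a difference of 1.19 (SE 0.099, 95% confidence interval 0.96 to 1.43, adjusted p = 0.0039) or 2.29-fold. The WT readings lay only a little above 5.89, the median of all genes. With 16 added to each intensity before log2 the difference was 1.02. The related matrix genes Emilin1, Emilin3, Mmrn1 and Mmrn2 had differences of 0.047, 0.13, 0.083 and −0.088, none past the threshold.

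F13a1 encodes the A subunit of coagulation factor XIII, the transglutaminase that cross-links fibrin, made by monocytes and by megakaryocytes. It read 4.59 and 4.64 in Flt3 KO, against 4.29 and 4.40 in WT. All 4 arrays were dim, below the median of all genes, with the Flt3 KO arrays slightly higher. The difference of 0.27 (SE 0.097, 95% confidence interval 0.043 to 0.50) did not pass (adjusted p = 0.22), and it was 0.16 with 16 added to each intensity before log2. Of 5 measured platelet and megakaryocyte genes none passed in limma, with 1 higher and 0 lower at a nominal p below 0.05. All 5 had a positive difference (median 0.215). In 4 both Flt3 KO arrays lay above both WT arrays, where 21.9% of all genes did so. Their summed intensity was 249.2 and 255.6 in Flt3 KO and 226.4 and 230.3 in WT. Pf4 and Ppbp, the abundant platelet chemokine genes, read 4.07 to 4.66 on all 4 arrays. The part of platelet RNA in the F13a1 reading was not tested.

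**Figure D2:**
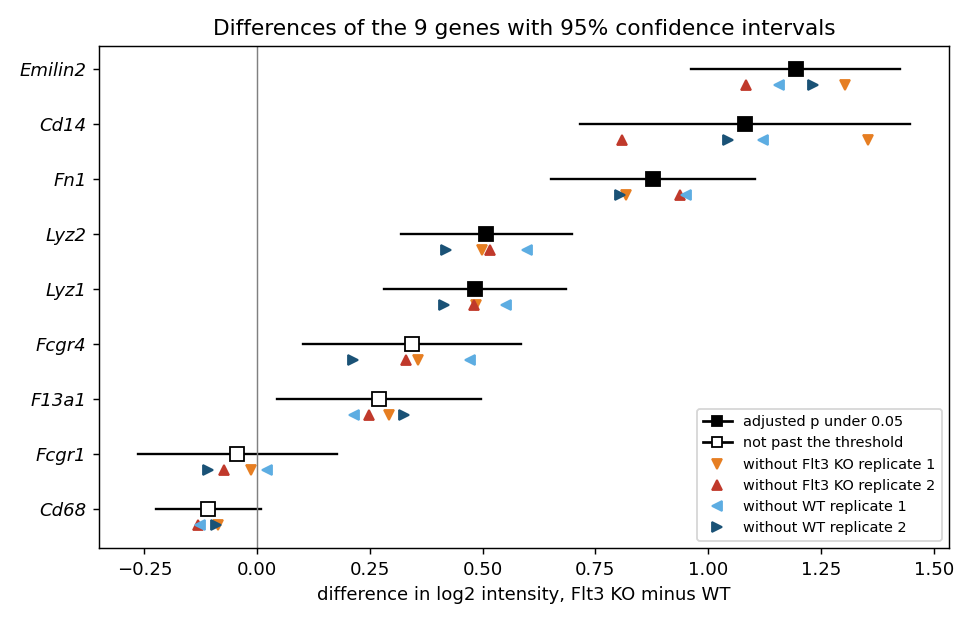
Difference in log2 intensity (Flt3 KO minus WT) of the 9 genes, with limma's 95% confidence interval; filled squares passed an adjusted p of 0.05, and coloured triangles below each line give the difference with 1 array left out. The difference of Cd14 ranges from 0.81 to 1.35 when an array is left out, that of Lyz1 from 0.41 to 0.55, and those of Fcgr1 lie on both sides of 0.

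All 5 calls rest on the full set of arrays. With 1 array left out, limma had 1 residual degree of freedom: none of the 9 genes passed without WT replicate 1, WT replicate 2 or Flt3 KO replicate 2 (0, 0 and 2 of all genes did; 2068, 2650 and 2689 at a nominal p below 0.05). Leaving out Flt3 KO replicate 1, Cd14 and Emilin2 passed (54 of all genes). The 5 differences kept their sign and moved by less than 1.5 times in these fits. The calls of 19 different genes in the surrounding lists were lost in them too, apart from Cx3cr1 and S100a4 without Flt3 KO replicate 1. Without the intensity trend in the variance, Emilin2 (adjusted p = 0.023) and Fn1 (adjusted p = 0.033) passed, and Cd14 (0.071), Lyz1 (0.079) and Lyz2 (0.086) did not.

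Receptors and partners of the matrix proteins went in both directions. Among 14 fibronectin receptors and matrix partners 1 rose and 1 fell (median difference 0.12), beside 1.08% and 1.31% of all genes. At a nominal p below 0.05 in limma, 4 were higher and 2 lower, a level that 17.1% of all genes met. Itga5, the α chain of the classical fibronectin receptor, rose, with 6.93 and 7.21 in Flt3 KO, against 6.33 and 6.12 in WT (difference 0.85, SE 0.12, adjusted p = 0.020). Sdc4, a heparan sulphate proteoglycan that assists fibronectin adhesion, fell, with 9.42 and 9.36 in Flt3 KO, against 9.94 and 9.87 in WT (difference −0.51, SE 0.056, adjusted p = 0.0085). The partner chain gene Itgb1 had Flt3 KO readings of 8.66 and 8.66 and WT readings of 8.53 and 8.49 and did not pass (adjusted p = 0.25).

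Among 14 genes of transglutaminases and coagulation 1 rose and 1 fell as well (median difference 0.027), beside 1.08% and 1.31% of all genes. At a nominal p below 0.05 in limma, 5 were higher and 2 lower, a level that 17.1% of all genes met. Thbd, which encodes the anticoagulant receptor thrombomodulin, rose, with 7.56 and 7.28 in Flt3 KO, against 6.72 and 6.70 in WT (difference 0.71, SE 0.10, adjusted p = 0.020). Plaur, the urokinase receptor gene, fell, with 12.04 and 12.01 in Flt3 KO, against 12.43 and 12.29 in WT (difference −0.34, SE 0.052, adjusted p = 0.023). F13b, the gene of the carrier subunit of factor XIII made in the liver, was dim, with 3.32 and 3.48 in Flt3 KO and 3.55 and 3.42 in WT.

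Further genes of classical monocytes, the inflammatory type that leaves blood for tissue, were read with a median difference of 0.30 over 17 measured. Of these, 2 rose and none fell, beside 1.08% and 1.31% of all genes. At a nominal p below 0.05, 8 were higher and 0 lower, beside 1385 and 2020 of all 19938 genes. In 14 of the 17 the difference was positive. In 10 both Flt3 KO arrays lay above both WT arrays and in none below, beside 21.9% and 25.3% of all genes. Ccr2, the receptor that draws monocytes out of the bone marrow, read 9.16 and 9.19 in Flt3 KO, against 8.43 and 8.52 in WT (difference 0.70, SE 0.063, adjusted p = 0.0046). S100a4, a calcium-binding protein gene, read 8.34 and 8.65 in Flt3 KO, against 7.58 and 7.67 in WT (difference 0.87, SE 0.11, adjusted p = 0.011). CCR2 is also known on pDCs, so it does not mark monocytes alone. The other 15 did not pass. Among them the receptor gene Csf1r differed by 0.52 (adjusted p = 0.16), Thbs1, the thrombospondin gene, by 0.51 (adjusted p = 0.064) and the integrin gene Itgam by 0.41 (adjusted p = 0.12). Of the 17, 8, among them Vcan, Chil3, Clec4a1 and Gda, lay below the median of all genes in both genotypes. Chil3, an abundant transcript of mouse classical monocytes and 1 of 3 genes with a negative difference, read 3.53 and 2.83 in Flt3 KO and 3.39 and 3.51 in WT. Vcan, the versican gene, read 4.54 and 4.19 in Flt3 KO and 3.94 and 3.75 in WT (adjusted p = 0.12).

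Of 14 genes of non-classical monocytes, the type that patrols vessels, 1 rose and none fell, beside 1.08% and 1.31% of all genes (median difference −0.014). It was the fractalkine receptor gene Cx3cr1, with 8.63 and 9.06 in Flt3 KO, against 7.73 and 7.90 in WT (difference 1.03, SE 0.14, adjusted p = 0.015). At a nominal p below 0.05, 3 of the 14 were higher and 2 lower. In 3 both Flt3 KO arrays lay above both WT arrays, and in 4 both lay below, beside 21.9% and 25.3% of all genes. Others of that list were interleaved between the genotypes. Among these Treml4 read 7.99 and 8.61 in Flt3 KO and 8.27 and 7.73 in WT. Spn read 8.19 and 8.21 in Flt3 KO and 8.17 and 8.21 in WT.

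Transcription factors that set myeloid fate were among the genes that rose. Of 13 measured, 4 rose and 1 fell, beside 1.08% and 1.31% of all genes, with a median difference of 0.15. Runx1, needed for blood stem cells and myeloid maturation, read 8.82 and 9.01 in Flt3 KO, against 8.30 and 8.32 in WT (difference 0.60, SE 0.077, adjusted p = 0.013). Spi1, which encodes PU.1, read 9.28 and 9.46 in Flt3 KO, against 8.89 and 8.76 in WT (difference 0.55, SE 0.081, adjusted p = 0.021). Klf4, a factor required for monocyte differentiation, read 8.47 and 8.49 in Flt3 KO, against 8.09 and 7.99 in WT (difference 0.44, SE 0.067, adjusted p = 0.022). The other gene that rose, named after its value was seen, was Cebpd, a C/EBP family member of inflammatory myeloid cells (difference 0.50, adjusted p = 0.038). The gene that fell was Irf8, which is needed in pDCs and monocytes alike, with 12.02 and 11.96 in Flt3 KO, against 12.34 and 12.25 in WT (difference −0.31, adjusted p = 0.022). Cebpa (0.26, adjusted p = 0.15) and Cebpb (0.12, adjusted p = 0.59) did not pass.

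**Figure D3:**
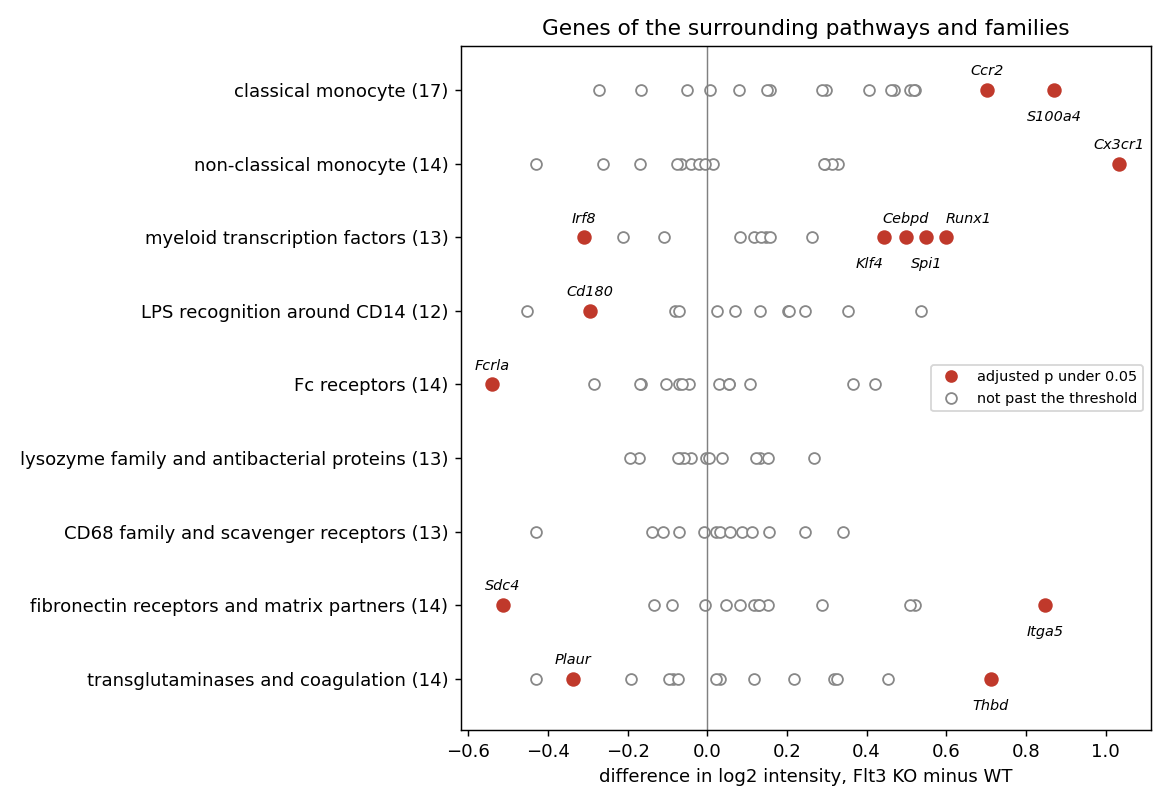
Difference in log2 intensity (Flt3 KO minus WT) of each measured gene in 9 lists around the monocyte-type genes, the number measured in brackets; red points passed an adjusted p of 0.05 and are named. Runx1, Spi1, Cebpd and Klf4 lie between 0.44 and 0.60, Cx3cr1 at 1.03, and no lysozyme-like, LAMP family or scavenger receptor gene passed.

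The replicates of Flt3 KO were close for most of the 9 genes. Flt3 KO replicate 2 exceeded replicate 1 in 7 of them, by a median of 0.044, with gaps of 0.55 for Cd14 and 0.22 for Emilin2, and fell short of it by 0.12 for Fn1. Genes of red pulp and tissue macrophages, which are known to carry Cd68, Fcgr1 and Cd14 as well, separated these arrays more widely. All 14 of them were higher in Flt3 KO replicate 2 than in replicate 1, by a median of 0.565. Their summed intensity was 3593 and 5329 in Flt3 KO replicates 1 and 2 and 3801 and 3136 in WT replicates 1 and 2, and 0 of 14 passed in limma (2 higher and 0 lower at a nominal p below 0.05). All 14 had a mean above the median of all genes in at least 1 genotype.

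Relative to the WT mean, the median of the macrophage genes was 0.060 on Flt3 KO replicate 1 and 0.55 on Flt3 KO replicate 2, with the WT arrays at 0.11 and −0.11. On Flt3 KO replicate 1, 4 of the 14 lay above both WT arrays, 4 below both and 6 between them, and on replicate 2 14 lay above both. C1qa, the complement gene of tissue macrophages and the one with the lowest p, read 9.43 and 10.05 in Flt3 KO, against 9.32 and 9.15 in WT (difference 0.50, SE 0.18, adjusted p = 0.22). The 9 genes had medians of 0.48 and 0.485 on Flt3 KO replicates 1 and 2. Emilin2 lay 1.085 and 1.304 above the WT mean on these arrays, Fn1 0.94 and 0.82, Cd14 0.81 and 1.35, Lyz2 0.52 and 0.50, and Lyz1 0.48 and 0.49. The part of macrophage RNA in the readings of the 9 genes was not tested.

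Markers of other cells that a pDC sort could hold did not pass in limma. The counts were 0 of 14 for neutrophils, 0 of 12 for conventional dendritic cells, 0 of 6 for B cells, 0 of 8 for T cells, 0 of 7 for NK cells and 0 of 6 for erythroid cells; at a nominal p below 0.05 they were 2 higher and 2 lower, 3 and 1, 1 and 1, 3 and 1, 1 and 0, and 0 and 1. The neutrophil genes, which matter here because neutrophils carry Lyz2 and Fcgr4, had a summed intensity of 1164 and 1217 in Flt3 KO and 1237 and 1396 in WT. Il1r2, by far the brightest of them, weighs most in these sums, with 9.05 and 9.37 in Flt3 KO and 9.38 and 9.58 in WT. The part of neutrophil RNA in the readings of the 9 genes was not tested. S100a8, an abundant neutrophil transcript shared with classical monocytes, read 5.12 and 4.98 in Flt3 KO, against 5.22 and 5.57 in WT (adjusted p = 0.26). The other neutrophil gene lower at a nominal p was Il1r2 (−0.27), and the 2 higher were the receptor genes Csf3r (0.32) and Cxcr2 (0.38). Several genes of conventional dendritic cells were bright in both genotypes, such as Cd209a, with 11.28 and 11.22 in Flt3 KO and 11.12 and 10.88 in WT. The summed intensity of that list was 9402 and 9443 in Flt3 KO and 9152 and 8682 in WT, and its part in the readings of the 9 genes was not tested. Itgax, its member with the lowest p, differed by 0.22 (adjusted p = 0.10). The others higher at a nominal p were Zbtb46 (0.48, adjusted p = 0.11) and Cd209a (0.24, adjusted p = 0.18), and the 1 lower was Ccr7 (−0.25, adjusted p = 0.18). The genes with the lowest p were Cr2 for B cells (0.35, adjusted p = 0.10), Cd5 for T cells (−0.36, adjusted p = 0.085), Nkg7 for NK cells (0.29, adjusted p = 0.15) and Ermap for erythroid cells (−0.35, adjusted p = 0.085). Against the sign of Cd5, the 3 T cell genes higher at a nominal p were Cd3d (0.35), Cd3e (0.29) and Cd6 (0.24). Against that of Cr2, the B cell gene lower was Cd79b (−0.25). The median difference was 0.11 for the T cell list and −0.06 for the B cell list.

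**Figure D4:**
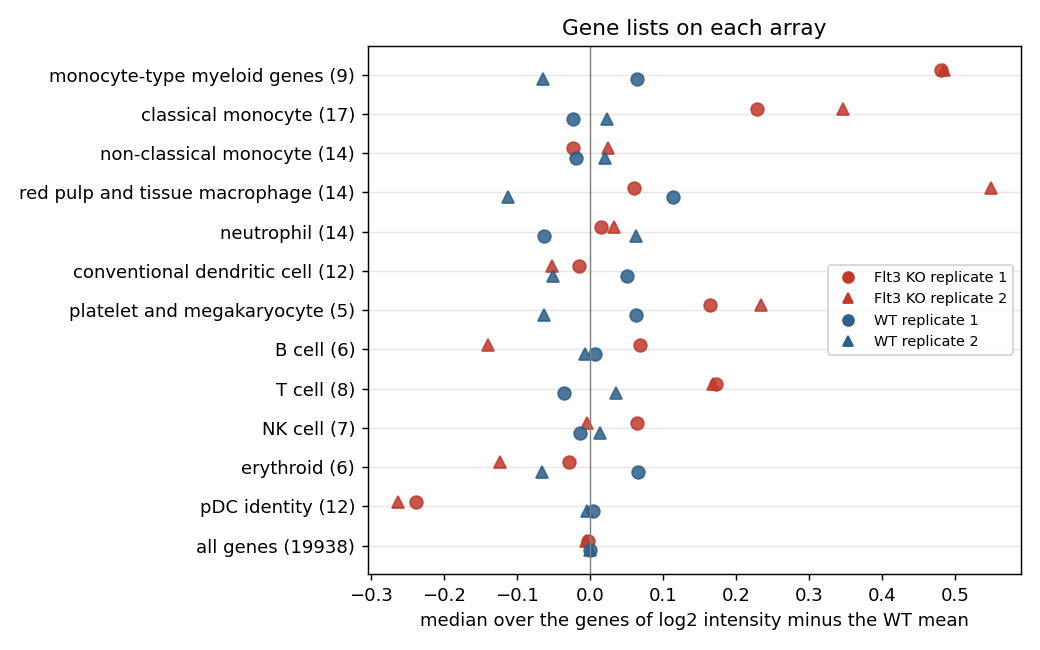
Median, over the genes of each list, of log2 intensity minus the WT mean, for each array (Flt3 KO red, WT blue, circles for replicate 1, triangles for replicate 2); the WT points mirror each other because their mean is 0. The monocyte-type genes stand at 0.48 and 0.485 on the Flt3 KO arrays, whereas the macrophage genes stand at 0.060 and 0.55.

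The 5 genes whose 4 readings, taken as deviations from their own mean, lay nearest to the median profile of the 9 genes were Pde1c, Pkp4, Klf4, Hip1 and Castor2, out of 9962 genes brighter than the median. The profile was 0.24 and 0.24 in Flt3 KO and −0.17 and −0.31 in WT, and the Euclidean distances ran from 0.041 to 0.066. Over 4 arrays such likeness says little more than that a gene was evenly raised in Flt3 KO and a little lower in WT replicate 2 than in WT replicate 1. Pde1c, a phosphodiesterase gene, read 6.45 and 6.48 in Flt3 KO, against 6.01 and 5.92 in WT.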

How the data were processed

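Expression was measured in 4 arrays, 2 of Flt3 KO and 2 of WT splenic pDCs. The authors deposited a linear intensity for each of 30177 probe sets, already on one scale between arrays. How background, probe summaries and scaling were handled is not given in the labels, and no detection call was at hand. Per the platform annotation 21789 probe sets had a single gene symbol, 1621 several and 6767 none; the single-symbol ones gave 19938 genes, each represented by its brightest probe set. Intensities were converted to log2 with no constant and no filter, and the genotypes were compared as Flt3 KO minus WT by lmFit and trended eBayes of limma 3.58.1 (R 4.3.3), without covariates. The procedure was tested on simulated data with equal noise in all genes, which does not test the intensity trend in the variance.

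The 9 genes and the 18 surrounding lists (211 genes, of which 196 were measured) were chosen with earlier results of these data known. Named were all 9 genes; of each list up to 4 genes past the threshold by p, or the gene with the lowest p; and the 5 genes nearest in pattern. Further list genes cited were chosen after their values were seen. Promoter windows are RefSeq's (GRCm38.p6); the files name no genome build. Alternatives changed scaling, constant, variance prior, probe set choice, filter and block, or left out 1 array. For arrays it is their number that limits the precision.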

Additional observations from a re-analysis of the deposited data

How the results depend on the processing

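The number of genes past the threshold was 476, and it became 108 without the intensity trend, 724 with dim genes left out (9969 tested) and 291 when all 30177 probe sets entered the test, an alternative chosen after seeing the data. Leaving out single arrays gave 0 to 54. Of the 9 monocyte-type genes 5 passed, against 2 without the intensity trend, 3 with all probe sets together (Lyz1 and Lyz2 lost), and 0 to 2 with 1 array left out. Their median difference of 0.48 became 0.41 with 16 added before log2 (F13a1, at 0.27, became 0.16) and lay between 0.41 and 0.55 when single arrays were left out. The difference of Fcgr1, −0.044, turned to 0.021 without WT replicate 1 and was −0.108 without WT replicate 2, the ends of its range. Quantile normalization, centring, the added constant, robust variance, averaging of probe sets and leaving out dim genes changed none of the 5 calls (F13a1 and Fcgr1 were not tested in the last). The labels do not say that equal replicate numbers mark a shared animal or day, and the deviations of same-numbered arrays from their group means had a correlation of −0.017 across genes. With a replicate block 375 genes and 4 of the 9 passed, Lyz1 being lost. Of the 19 list genes past the threshold, 18 passed with the replicate block, 2 without the intensity trend, 12 with all probe sets together, and 0 to 2 with 1 array left out; all 19 kept their sign in these fits. Genes with dim readings, here F13a1 and Fcgr1 in both genotypes and Fn1 in WT, are limited by low signal over background.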
